A study of Mus musculus with 12 samples.

Results

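A set of 9 genes that mark B lymphocytes was followed in cells sorted from infarcted mouse hearts: Cd79a, Cd79b, Ms4a1, Pax5, Cd22, Fcmr, Ly6d, Ebf1 and Blk. They are 9 of the 17952 genes listed in either of the deposited tables, were chosen by gene symbol, and all 9 were listed for all 12 libraries. Neither sort was aimed at B cells, yet every one of the 12 libraries held counts of Cd79a. Libraries of 1 group differed widely, by up to 496 times between the highest and the lowest for Fcmr in the P16hi F480-high group. The lowest of these held 7 counts of Fcmr. For Cd79a in the same group the factor was 159, with 72 counts in the lowest library. The group differences below are read against that spread.

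All mice carried p16-2A-CreER together with R26-mTmG. The first allele makes a tamoxifen-dependent Cre recombinase under the control of the p16 locus, and the second is a reporter that turns a cell from red to green fluorescence after Cre has acted. All had a myocardial infarction (MI), received tamoxifen on day 5 and were sampled on day 7, when cells of the infarct zone other than cardiomyocytes were sorted. The 4 groups of 3 libraries were P16lo PDGFRα-high, P16hi PDGFRα-high, P16lo F480-high and P16hi F480-high cells, where P16hi and P16lo stand for high and low green fluorescence. Green cells had active Cre in the days before harvest, so the gate reports that history. Cdkn2a, the gene of the p16 locus, held few counts at harvest: 2 to 3 in P16lo and 5 to 8 in P16hi PDGFRα-high libraries, and 3 to 5 in P16lo and 13 to 26 in P16hi F480-high libraries. In CPM (counts per 1000000 counts, with the library total scaled by TMM within each sorted population) these were 0.103 to 0.329 against 0.617 to 1.84 and 0.115 to 0.191 against 0.555 to 1.01, so that all P16hi lay above all P16lo libraries in both populations, as for 7.92% of genes tested in PDGFRα-high cells (where Cdkn2a failed the filter on low counts) and 3.37% in F480-high cells. PDGFRα is a fibroblast receptor, and F480 is the macrophage surface protein encoded by Adgre1. There was no uninjured group and no group without tamoxifen, and animal ages were not given in the sources used here. Whether the 3 libraries of a group stem from different animals is not stated in the labels. The p-values therefore cover the spread between libraries only, and that spread may be technical.

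B lymphocytes recognise antigen through a membrane immunoglobulin that signals through the paired chains Cd79a and Cd79b. Early in the lineage Ebf1 and then Pax5 switch on B cell genes, and Pax5 keeps mature B cells in their identity until they become antibody-secreting plasma cells. In the mouse heart B cells are found both inside small vessels and in the tissue, and more arrive after an infarct.

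The libraries held 3164000 to 18930000 counts in PDGFRα-high cells and 15490000 to 27890000 counts in F480-high cells. The PDGFRα-high libraries also differed in red cell RNA, with 7 erythroid genes summing to 0.244% to 45.1% of all counts, highest in P16lo library 3. The marker of each sort was present but uneven. In FPKM (fragments per kilobase, scaled to library depth), Pdgfra ran from 0.74 to 17.8 in PDGFRα-high and from 0.080 to 0.67 in F480-high libraries. Adgre1 ran from 6.37 to 272 FPKM in PDGFRα-high and from 12.8 to 506 FPKM in F480-high libraries. Adgre1 exceeded Pdgfra by FPKM in all PDGFRα-high libraries but P16lo library 3 (6.37 against 17.8). A list of 12 macrophage markers summed to 1443 to 31920 FPKM in PDGFRα-high and to 3987 to 50270 FPKM in F480-high libraries. The PDGFRα-high sort thus also held macrophage RNA. The lowest Adgre1 of the F480-high libraries was in P16lo library 3, which also had the highest FPKM of all 9 B cell genes in the series. CPM compare libraries of a population and not genes, which differ in length. Levels of different genes, or of libraries of both populations, are compared by FPKM. The exceptions are correlations on CPM scaled over all 12 libraries and the fits on all 12. FPKM are scaled to total depth, so a large share of red cell RNA lowers those of all other genes. That share was 18.8% in PDGFRα-high P16lo library 2 and 45.1% in P16lo library 3.

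The antigen receptor chains gave the clearest picture of the spread. Cd79a (gene 12518, chromosome 7, 24897497 to 24901858 on GRCm38.p6) encodes the alpha signalling chain of the B cell receptor. In PDGFRα-high cells it measured 5.37, 380.3 and 45.2 CPM in P16lo libraries 1 to 3 and 11.6, 10.3 and 115 CPM in P16hi libraries 1 to 3. In F480-high cells it measured 199, 149.6 and 2565 CPM (P16lo) and 3.07, 489 and 48.5 CPM (P16hi). The groups overlapped in both populations, with P16lo library 2 highest among PDGFRα-high and P16lo library 3 highest among F480-high libraries. In counts, the extremes were 38 for Cd79a in PDGFRα-high P16hi library 1 and 67240 in F480-high P16lo library 3.

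Cd79b (gene 15985, chromosome 11, 106311341 to 106314562), the partner chain, measured 55.6, 356 and 38.7 CPM among P16lo and 19.3, 22.6 and 77.7 CPM among P16hi libraries of PDGFRα-high cells. In F480-high cells its values were 116, 98.2 and 1585 CPM in P16lo libraries, against 16.5, 385 and 61.2 CPM in P16hi. The same libraries were high as for Cd79a, but Cd79b did not fall as far in the low ones. Its highest library exceeded its lowest by 23.4 times among F480-high P16hi libraries, against 159 times for Cd79a.

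**Figure D1:**
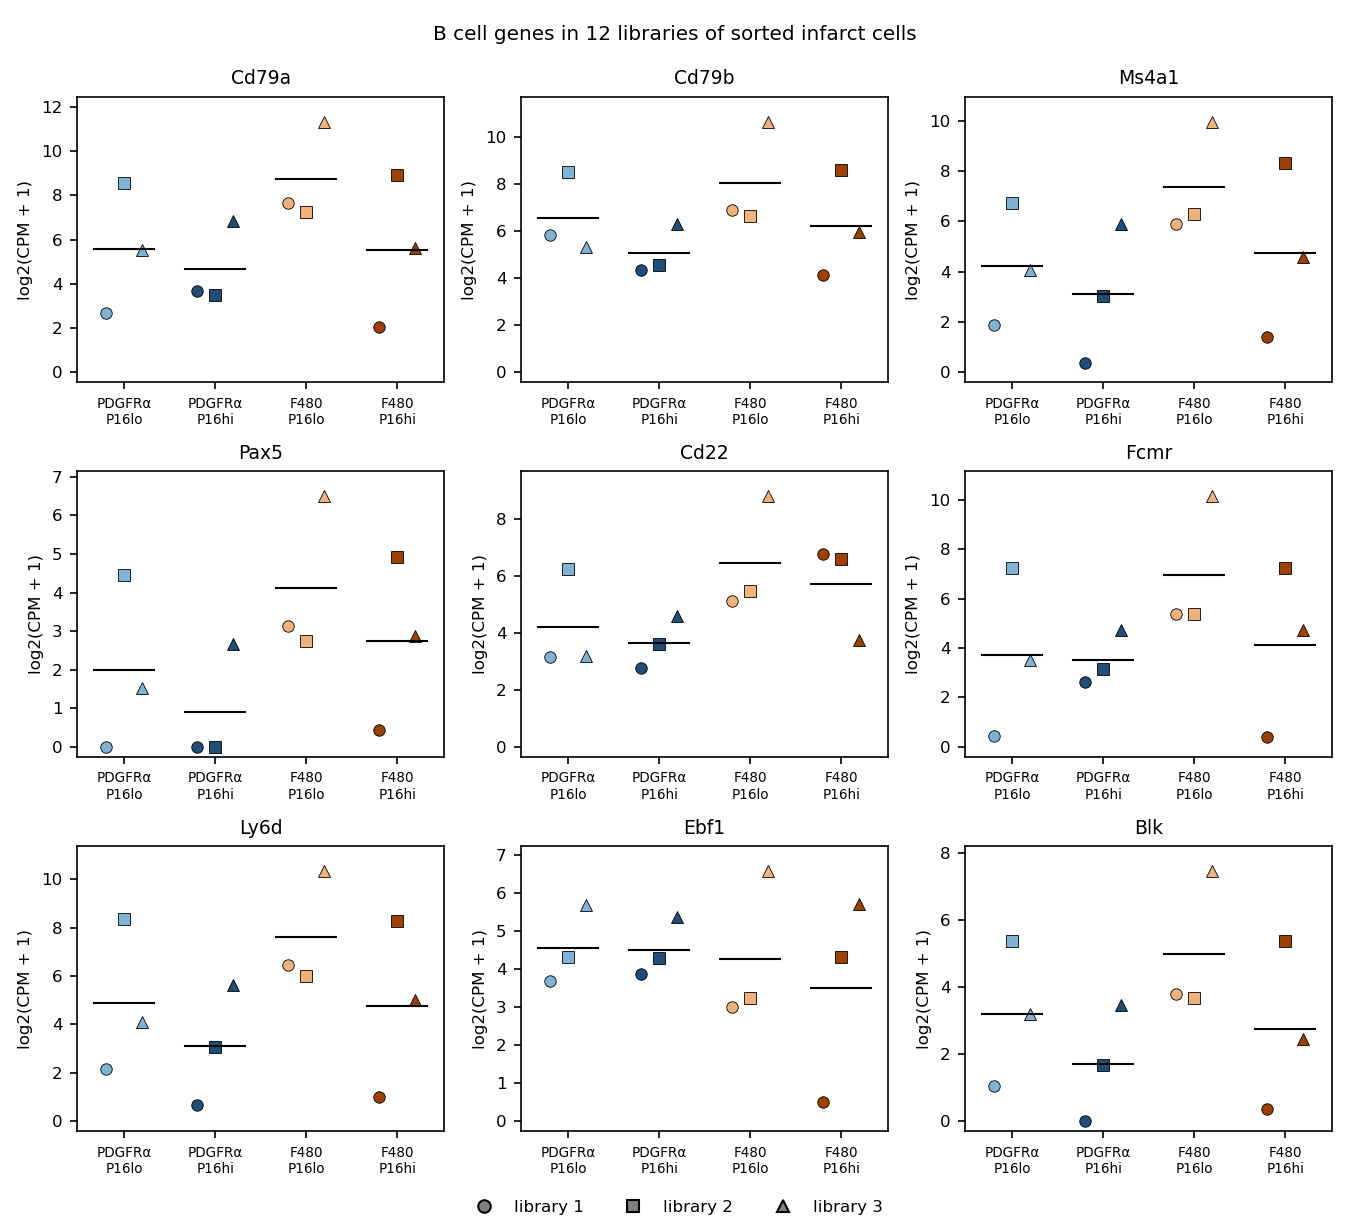
Level of each B cell gene in each library, as log2(CPM + 1), by group; symbols mark library numbers and the line is the mean of the 3 log values. CPM are scaled within each population. P16lo library 2 of PDGFRα-high cells is highest of its population for 8 of the 9 genes, and P16lo library 3 of F480-high cells for all 9.

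Cd22, Blk and Fcmr encode proteins that tune receptor signalling at the surface or just beneath it. Cd22 (gene 12483, chromosome 7, 30865404 to 30880342), an inhibitory lectin that binds sialic acid, measured 8.003, 74.5 and 8.22 CPM (P16lo) and 5.81, 11.3 and 23.3 CPM (P16hi) in PDGFRα-high cells. Its F480-high values were 34.0, 43.5 and 448 CPM among P16lo and 109, 95.6 and 12.6 CPM among P16hi libraries. Cd22 alone among the 9 genes was not near its lowest in F480-high P16hi library 1: that library held 2561 counts of Cd22 and 72 of Cd79a.

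Blk (gene 12143, chromosome 14, 63372837 to 63417187), a Src-family kinase that acts beneath the receptor, measured 1.08, 40.0 and 8.22 CPM in P16lo libraries, against 0, 2.19 and 9.95 CPM in P16hi libraries, of PDGFRα-high cells. In F480-high cells Blk stood at 12.8, 11.7 and 174 CPM (P16lo) and 0.299, 40.7 and 4.52 CPM (P16hi). Fcmr (gene 69169, chromosome 1, 130865777 to 130880790), the receptor for the Fc part of IgM, measured 0.361, 149.7 and 10.5 CPM among P16lo and 5.20, 7.93 and 25.1 CPM among P16hi libraries of PDGFRα-high cells. In F480-high cells Fcmr measured 40.8, 40.4 and 1123 CPM in P16lo libraries, against 0.299, 148 and 25.3 CPM in P16hi. Neither gene separated P16hi from P16lo in either population, since the lowest library of a P16lo group lay below the highest of the P16hi group each time.

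Ms4a1 and Ly6d, surface markers of the lineage, followed the same libraries. Ms4a1 (gene 12482, chromosome 19, 11249679 to 11266149), which encodes CD20, measured 2.63, 105 and 15.9 CPM (P16lo) and 0.306, 7.09 and 58.3 CPM (P16hi) in PDGFRα-high cells. Its F480-high values were 58.1, 77.6 and 1000 CPM among P16lo and 1.62, 320 and 22.7 CPM among P16hi libraries. Ly6d (gene 17068, chromosome 15, 74762056 to 74763567), a GPI-anchored protein that appears as precursors commit to the B lineage, measured 3.51, 325 and 16.1 CPM in P16lo libraries, against 0.612, 7.43 and 48.3 CPM in P16hi libraries, of PDGFRα-high cells. In F480-high cells Ly6d measured 87.4, 63.6 and 1289 CPM (P16lo) and 1.02, 307 and 31.4 CPM (P16hi).

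The transcription factors differed from each other. Pax5 (gene 18507, chromosome 4, 44524748 to 44710694) had no count in 3 of 12 libraries, all PDGFRα-high: P16lo library 1 and P16hi libraries 1 and 2. In the other PDGFRα-high libraries it measured 20.8 and 1.86 CPM in P16lo libraries 2 and 3 and 5.40 CPM in P16hi library 3. In F480-high cells it measured 7.85, 5.66 and 89.1 CPM among P16lo and 0.341, 29.2 and 6.28 CPM among P16hi libraries. Ebf1 (gene 13591, chromosome 11, 44618100 to 45008096) measured 11.8, 19.0 and 49.8 CPM in P16lo libraries, against 13.5, 18.4 and 40.1 CPM in P16hi libraries, of PDGFRα-high cells. Its F480-high values were 7.05, 8.37 and 93.8 CPM (P16lo) and 0.427, 19.0 and 50.7 CPM (P16hi). Ebf1 was the one gene of the 9 whose highest PDGFRα-high library was not P16lo library 2. By CPM its highest was P16lo library 3, which also had the most Pdgfra, and by FPKM it was P16hi library 3 (10.04 against 6.62). Ebf1 is known outside the B lineage in fat precursors, pericytes and fibroblasts. On log2 CPM scaled over all 12 libraries, its Pearson's r was 0.042 with summed fibroblast, 0.12 with pericyte and smooth muscle and 0.36 with endothelial markers. Without F480-high P16hi library 1 and P16lo library 3 these were 0.24, 0.55 and 0.52. How much of the Ebf1 signal came from such cells was not tested.

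Across libraries, the 9 genes kept a common order by FPKM in the libraries where they were abundant. F480-high P16lo library 3 ranked first of 12 for all 9 genes, and F480-high P16hi library 2 ranked second for 8, the exception being Ebf1. PDGFRα-high P16lo library 2 came next for 7, all but Cd22 and Ebf1. In F480-high P16lo library 3 the FPKM of Cd79a, Ly6d and Cd79b were 3630, 2963 and 1748, those of Fcmr, Ms4a1 and Cd22 were 990, 410.7 and 147, and those of Blk, Ebf1 and Pax5 were 87.3, 20.8 and 12.7.

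The proportions between the genes show which ones followed the rest. Ms4a1 stood at 0.0797 to 0.198 of the Cd79a FPKM in 11 libraries, and at 0.00755 in PDGFRα-high P16hi library 1, where Cd79a itself had 38 counts. Cd79b stood at 0.453 to 0.985 of Cd79a in 8 libraries, but at 8.04 in PDGFRα-high P16lo library 1, at 4.15 in F480-high P16hi library 1, and at 1.30 and 1.71 in PDGFRα-high P16hi libraries 1 and 2. These 4 libraries had the lowest Cd79a FPKM of the 12. Cd22 stood at 0.0404 to 0.357 of Cd79a in 11 libraries and at 8.42 in F480-high P16hi library 1. Ebf1 ranged from 0.00550 to 0.347 of Cd79a, with its 3 lowest ratios in F480-high P16lo libraries 1 and 3 and F480-high P16hi library 2.

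**Figure D2:**
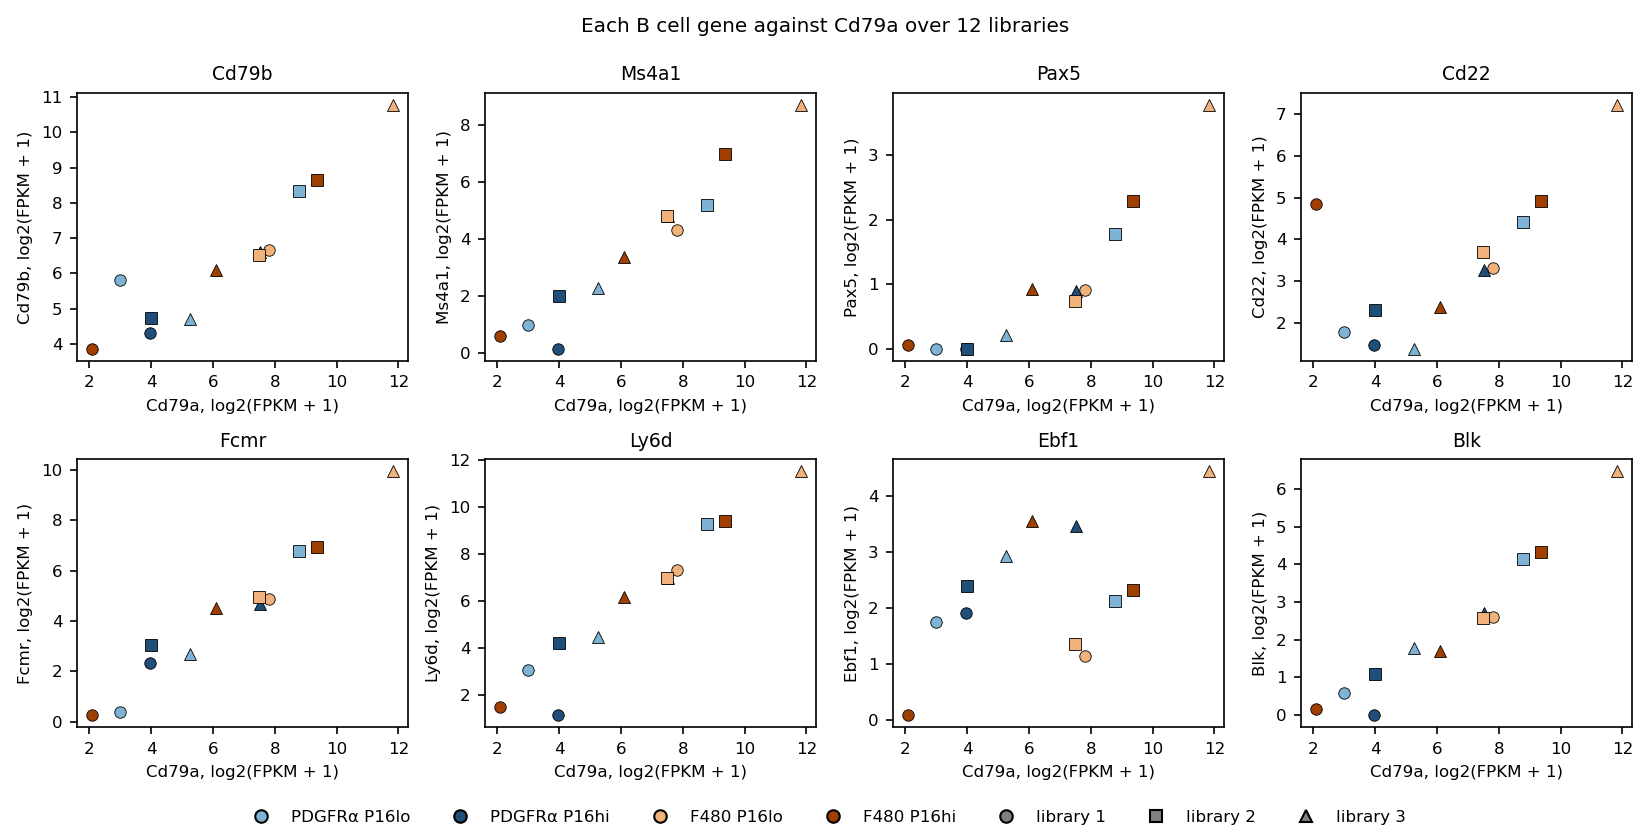
Each of the other 8 genes against Cd79a over the 12 libraries, both as log2(FPKM + 1); colours are groups and symbols library numbers. Ms4a1, Pax5, Fcmr, Ly6d and Blk rise with Cd79a. Cd79b does so too, but lies high in the libraries with the least Cd79a (8.04 and 4.15 times Cd79a in 2 of them), Cd22 has 1 library far above the rest (F480-high P16hi library 1, 8.42 times Cd79a), and Ebf1 is scattered.

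The correlation of each gene with the mean of the other 8, on log2 CPM scaled over all 12 libraries, describes the same split. Pearson's r was 0.986 for Blk (Spearman's rho 0.986), 0.985 for Ly6d (0.993), 0.980 for Pax5 (0.930), 0.980 for Cd79a (0.958), 0.976 for Ms4a1 (0.986), 0.965 for Fcmr (0.972) and 0.954 for Cd79b (0.979). It was 0.68 for Cd22 (rho 0.60) and 0.51 for Ebf1 (rho 0.41). Without the 2 libraries farthest from the median, F480-high P16hi library 1 and P16lo library 3, r was 0.93 for Cd22 and 0.015 for Ebf1, so the value for Ebf1 rests on those libraries. No p is given, since the genes share libraries and depth.

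The regulatory sequence before the start of these genes is shown for the 3 that held a match to the motifs named below. Of these, Cd79a followed the common pattern, and Cd22 and Ebf1 left it. RefSeq promoters on GRCm38.p6 were at hand for 5 of the 9 genes in 6 windows, and each window printed is the 250 bases before a listed start. Capitals mark matches on either strand to the full EBF motif (TCCC and GGGA with any 2 bases between them), its half-site GGGAAT, the E-box CAGGTG, the octamer ATGCAAAT or the ETS motif CAGGAAGT. The Cd79a window is chr7:24897247-24897496 on the plus strand and the Cd22 window chr7:30879029-30879278 on the minus strand, inside the annotated span of the gene. The Ebf1 window, chr11:44619978-44620227 on the plus strand, belongs to the downstream of the 2 starts listed.
Cd79a: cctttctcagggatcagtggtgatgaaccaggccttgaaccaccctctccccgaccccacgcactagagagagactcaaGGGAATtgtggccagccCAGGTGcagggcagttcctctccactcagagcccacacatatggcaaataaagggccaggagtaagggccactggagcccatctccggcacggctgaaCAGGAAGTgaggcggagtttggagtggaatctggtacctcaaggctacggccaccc
Cd22: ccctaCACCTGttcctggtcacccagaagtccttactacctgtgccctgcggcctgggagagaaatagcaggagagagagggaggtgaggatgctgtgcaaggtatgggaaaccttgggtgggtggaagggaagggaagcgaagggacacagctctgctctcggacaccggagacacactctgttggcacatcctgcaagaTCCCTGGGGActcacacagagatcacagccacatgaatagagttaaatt
Ebf1: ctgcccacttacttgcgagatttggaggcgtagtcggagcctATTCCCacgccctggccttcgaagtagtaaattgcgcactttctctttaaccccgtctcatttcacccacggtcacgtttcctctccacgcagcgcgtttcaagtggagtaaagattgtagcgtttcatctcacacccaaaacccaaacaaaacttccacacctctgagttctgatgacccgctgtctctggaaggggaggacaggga
Counted back from the start, Cd79a held the half-site at -171 to -166, the E-box at -154 to -149 and the ETS motif at -56 to -49. Cd22 held the full EBF motif, which reads the same on both strands, at -49 to -40 and an E-box on the other strand at -245 to -240. The Ebf1 window held a half-site at -208 to -203 on the other strand. No match was found in the windows of Fcmr and Pax5 or in the upstream Ebf1 window. Over 32851 RefSeq windows of the same length, 0.779% held the full EBF motif, 11.4% the half-site, 17.2% the E-box, 1.6% the octamer and 2.69% the ETS motif. These matches are letters in a window and not measured binding.

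The first comparison asked whether B cell genes differ between P16hi and P16lo cells of the PDGFRα-high sort. All 9 fold changes were below 0, with a median of -1.91 on the log2 scale, against -0.17 over all 13262 genes tested. None was called by edgeR's quasi-likelihood test with Benjamini-Hochberg adjustment, and none had an unadjusted p under 0.05. DESeq2 called none of them either, and limma on log2(TPM + 1) none of the 8 it tested, Pax5 having failed its filter on low values. The size moved with the setting, and the cause was not tested. With other scalings in edgeR the median was -1.88 (DESeq2 size factors), -1.855 (upper quartile) and -1.51 (library totals). The limma median was -0.21 with TPM, with 5 of 8 below 0, and -0.51 with FPKM, with 6 of 8 below 0, while the median of all genes was 0.51 and 0.25 on those scales. Over all genes edgeR called 0 as well (0% higher or lower), and an unadjusted p under 0.05 was reached by 637 genes that were higher and 222 that were lower. The groups of P16hi and P16lo libraries did not separate for any of the 9, against 14.8% of genes tested (7.92% higher, 6.92% lower).

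By size, the log2 differences in PDGFRα-high cells (3 against 3 libraries, edgeR) began with Ly6d at -2.59 (SE 1.77, adjusted p = 0.878). Fcmr stood at -2.05 (SE 1.61), Pax5 at -1.98 (SE 2.28), Blk at -1.97 (SE 1.56), Cd79b at -1.91 (SE 0.964) and Cd79a at -1.65 (SE 1.49). Cd22 stood at -1.15 (SE 0.979), Ms4a1 at -0.89 (SE 1.58) and Ebf1 at -0.15 (SE 0.652). Adjusted p over the 9 ran from 0.823 to 0.957. The direction rests on single libraries. Without P16lo library 2 the median was 0.86, with 3 of 9 below 0, and without P16hi library 3, the highest P16hi library, it was -3.41, with 9 of 9 below 0. In bulk RNA, fewer B cells and less of these RNAs per B cell cannot be told apart.

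The second comparison put the same question to F480-high cells. Again all 9 fold changes were below 0, with a median of -1.96, against 0.00 over the 12490 genes tested. None of the 9 was called by edgeR and none had an unadjusted p under 0.05. No gene at all was called (0%), although an unadjusted p under 0.05 was reached by 242 higher and 38 lower genes. limma called none of the 9, and DESeq2 gave an adjusted p for 2 of them, calling neither. The groups overlapped for all 9 genes, against 6.85% of genes tested whose groups did not (3.37% higher, 3.48% lower).

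Fcmr had the largest difference in F480-high cells, -2.79 (SE 2.06), followed by Cd79a at -2.43 (SE 1.83), Blk at -2.12 (SE 1.73) and Ly6d at -2.08 (SE 1.90). Cd79b stood at -1.96 (SE 1.5), Ms4a1 at -1.72 (SE 1.84), Pax5 at -1.52 (SE 1.58), Cd22 at -1.27 (SE 1.20) and Ebf1 at -0.64 (SE 1.55). The adjusted p was 0.999 for each. Without P16lo library 3 all 9 differences were above 0, with a median of 0.58, and without P16hi library 2 all 9 were below 0, with a median of -4.75.

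The F480 table came as a pair of column blocks, whose meaning the labels do not give. One block held P16hi libraries 2 and 3 beside P16lo library 3. The other held P16hi library 1 beside P16lo libraries 1 and 2. Within the first block the P16hi minus P16lo difference of Cd79a was -4.04 on the log2(CPM + 1) scale, from 11.3 in P16lo to 7.28 in P16hi. Within the second it was -5.41, from 7.44 to 2.03. For 8 of the 9 genes P16hi lay below P16lo within both blocks, and Cd22 was the exception, with a P16hi minus P16lo difference of -3.63 in the first block and 1.48 in the second. With the block as a term in edgeR the median of the 9 was -3.92, against 0.034 over all genes, and 8 of 9 had an unadjusted p under 0.05, as did 6.88% of all genes (4.09% higher, 2.79% lower). None was called, and the smallest adjusted p was 0.687. Each block has 1 library on one side, so its own spread cannot be measured there. These lone libraries, P16lo library 3 and P16hi library 1, are the 2 that lie farthest from the median of the 9 genes. In the PDGFRα table P16hi library 1 stands alone in a block, and no within-block value for it can be had.

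**Figure D3:**
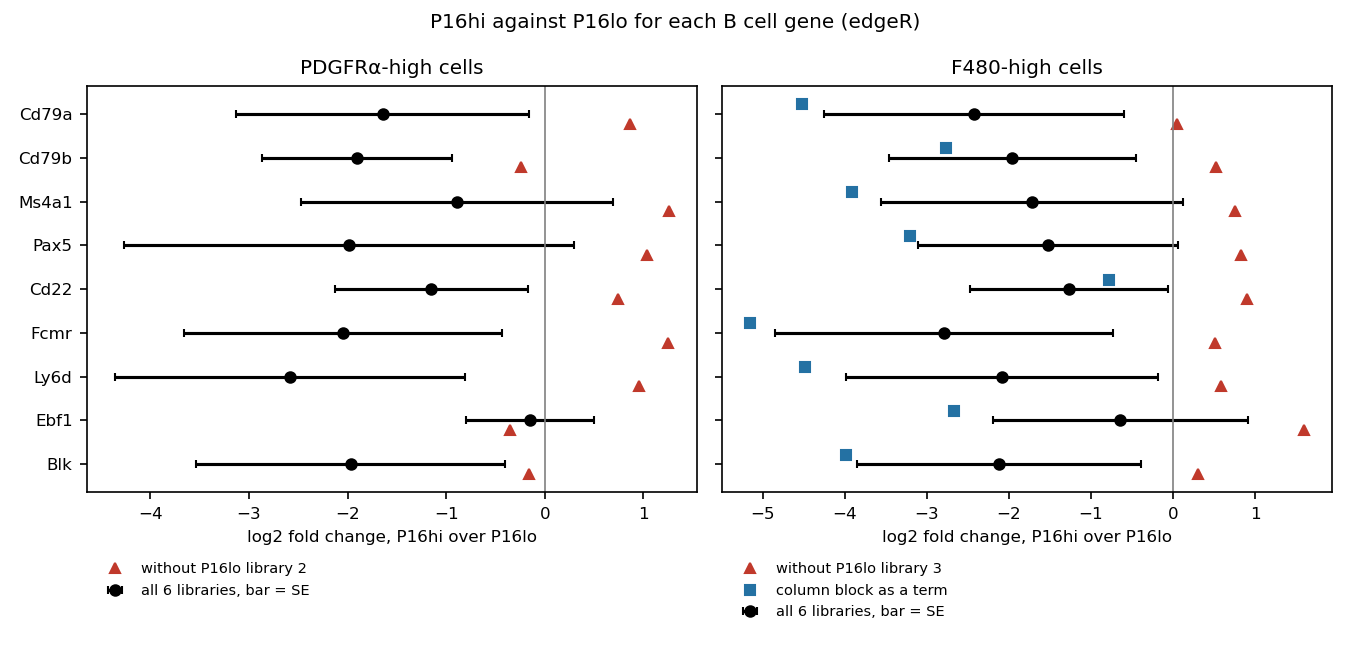
Log2 fold change of P16hi over P16lo for each gene in PDGFRα-high cells (left) and F480-high cells (right). Black points with bars are the edgeR value and its SE over all 6 libraries, triangles the value without the highest P16lo library, and squares (F480 only) the value with the column block as a term. All 9 black points lie below 0 on both sides, while 6 of 9 triangles on the left and 9 of 9 on the right lie above 0.

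Whether the P16 contrast differed between the populations was tested as an interaction over all 12 libraries. The difference (F480-high minus PDGFRα-high) had a median of -0.19 over the 9 genes and ran from -0.84 for Ms4a1 (SE 2.64) to 0.50 for Ly6d (SE 2.76). None was called by edgeR, limma or DESeq2 (which gave no adjusted p for 5 of them), and none had an unadjusted p under 0.05 in edgeR. Over all genes edgeR called 0 of 14073 genes (0%). An unadjusted p under 0.05 was reached by 186 higher and 113 lower genes. With standard errors from 1.68 to 2.80, differences of several log2 units were not detectable here. Leaving out 1 library moved the median between -2.70 and 2.26.

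Between the sorted populations, the B cell genes were at higher values in F480-high than in PDGFRα-high cells, but the spread was too wide for a call. The summed FPKM of the 9 genes was 3678 ± 5484 (SD, n = 3) in P16lo F480-high cells, 781 ± 1096 (SD, n = 3) in P16hi F480-high cells, 586 ± 858 (SD, n = 3) in P16lo PDGFRα-high cells and 200.4 ± 242 (SD, n = 3) in P16hi PDGFRα-high cells. Neighbours in that order of group means differed by less than 1 SD of the higher group. The fold changes over 12 libraries had a median of 2.51 on the log2 scale, against -0.07 over 14073 genes. The tables were deposited separately, so the population is confounded with the table.

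None of the 9 was called in that comparison by edgeR, where 6.34% of genes were called (2.64% higher and 3.7% lower). Cd22 came nearest, at 2.61 (SE 0.886, adjusted p = 0.0867, edgeR), and was the only one with an unadjusted p under 0.05. DESeq2 called Cd22 alone (2.59, adjusted p = 0.00939) and gave no adjusted p for 5 of the 9, while edgeR called it once F480-high P16hi library 3 was left out (2.97, adjusted p = 0.0356). Over all settings its adjusted p ran from 0.00939 to 0.193. Ms4a1 stood at 2.94 (SE 1.42), Fcmr at 2.68 (SE 1.45), Pax5 at 2.52 (SE 1.48), Cd79a at 2.51 (SE 1.32), Ly6d at 2.46 (SE 1.46), Cd79b at 2.12 (SE 0.983) and Blk at 2.07 (SE 1.26). Ebf1 differed least, at 0.31 (SE 0.903), and its sign turned in 3 of the other settings and without some single libraries.

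Other genes of the B cell receptor pathway are largely shared with macrophages. Of 22 such genes, 9 were highest in P16lo library 2 and 12 in P16lo library 1 among PDGFRα-high libraries, and 8 were highest in P16lo library 3 among F480-high libraries. In P16hi against P16lo, 21 of them lay below 0 in PDGFRα-high and 20 in F480-high cells, with medians of -0.96 and -0.61, and none was called. Over all genes tested, 59.6% lay below 0 in PDGFRα-high and 50% in F480-high cells. The size of these medians moved with single libraries. With 1 library left out they ran from -1.43 to -0.54 in PDGFRα-high and from -0.89 to -0.29 in F480-high cells. In PDGFRα-high cells the median was -0.54, with 19 of 22 below 0, without P16lo library 1. It was -0.58, with 17 of 22 below 0, without P16lo library 2. In F480-high cells 16 of 22 lay below 0 without P16lo library 3 (median -0.41) and without P16hi library 3 (median -0.29). Against PDGFRα-high cells, 3 of the 22 were called higher in F480-high cells, as were 2.64% of all genes tested. The kinase Syk was higher by 1.80 (SE 0.466, adjusted p = 0.0461, edgeR). Of the NF-kB branch, Malt1 was higher by 2.11 (SE 0.468, adjusted p = 0.0348, edgeR) and Bcl10 by 1.32 (SE 0.320, adjusted p = 0.0388, edgeR). These calls are fragile. With each of the 12 libraries left out in turn, Syk was called in 2 fits, Bcl10 in 3 and Malt1 in 4. In F480-high cells Syk measured 386, 391.8 and 286 CPM among P16lo and 351, 270.1 and 72.8 CPM among P16hi libraries, a far narrower range than that of Cd79a.

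Of 24 other B cell markers, 23 lay below 0 in P16hi PDGFRα-high cells (median -1.43) and all 24 in P16hi F480-high cells (median -1.82), and none was called. Without PDGFRα-high P16lo library 2, 13 of 24 lay below 0 (median -0.078), and without F480-high P16lo library 3, 8 of 24 did (median 0.15). The medians were -2.55 without PDGFRα-high P16hi library 3 and -3.27 without F480-high P16hi library 2. Of the 24, 2 were called higher in F480-high than in PDGFRα-high cells, as were 2.64% of all genes tested. They were Cd83, by 3.59 (SE 0.501, adjusted p = 0.0141, edgeR), and Cd180, by 2.41 (SE 0.576, adjusted p = 0.0388, edgeR). Both are also made by myeloid cells. Cd83 was called in 9 and Cd180 in 3 of the 12 fits that left out 1 library.

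Genes of other stages of the lineage peaked in different libraries among those rich in the 9 genes. Jchain, which joins secreted IgM and IgA and marks plasma cells, measured 60.7, 0.473 and 112 CPM among P16lo and 3.67, 2.70 and 13.3 CPM among P16hi libraries of PDGFRα-high cells. In F480-high cells Jchain measured 793, 846 and 30.9 CPM in P16lo libraries, against 0.299, 3780 and 0.396 CPM in P16hi. F480-high P16hi library 2 was thus its highest, while the library with the most Cd79a held 30.9 CPM. Mzb1, a chaperone of the secretory pathway in plasma and marginal zone B cells, measured 508 FPKM in F480-high P16lo library 3 and 358 FPKM in P16hi library 2, and at most 67.8 FPKM in the other 10. Of 9 plasma cell genes none was called in any of the 4 comparisons.

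Dntt, Rag1 and Rag2, which cut, extend and join receptor genes in precursors of both B and T cells, stood out in 1 library. PDGFRα-high P16lo library 2 held 134 FPKM of Dntt, 4.84 FPKM of Rag1 and 11.05 FPKM of Rag2. The other 11 libraries held at most 0.31, 0.030 and 0.030 FPKM of them. In the same library Lef1 stood at 18.4 FPKM, against at most 3.27 FPKM elsewhere. Igll1, part of the surrogate light chain of B cell precursors, had no count in any library, and Vpreb1 reached at most 2.09 FPKM in any. The summed level of 15 T and NK cell markers was 1522 FPKM in PDGFRα-high P16lo library 2, against 12.8 to 359 FPKM in the other 11. The 12 immunoglobulin genes searched for by symbol were not among the genes listed, so they could not be analysed.

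**Figure D4:**
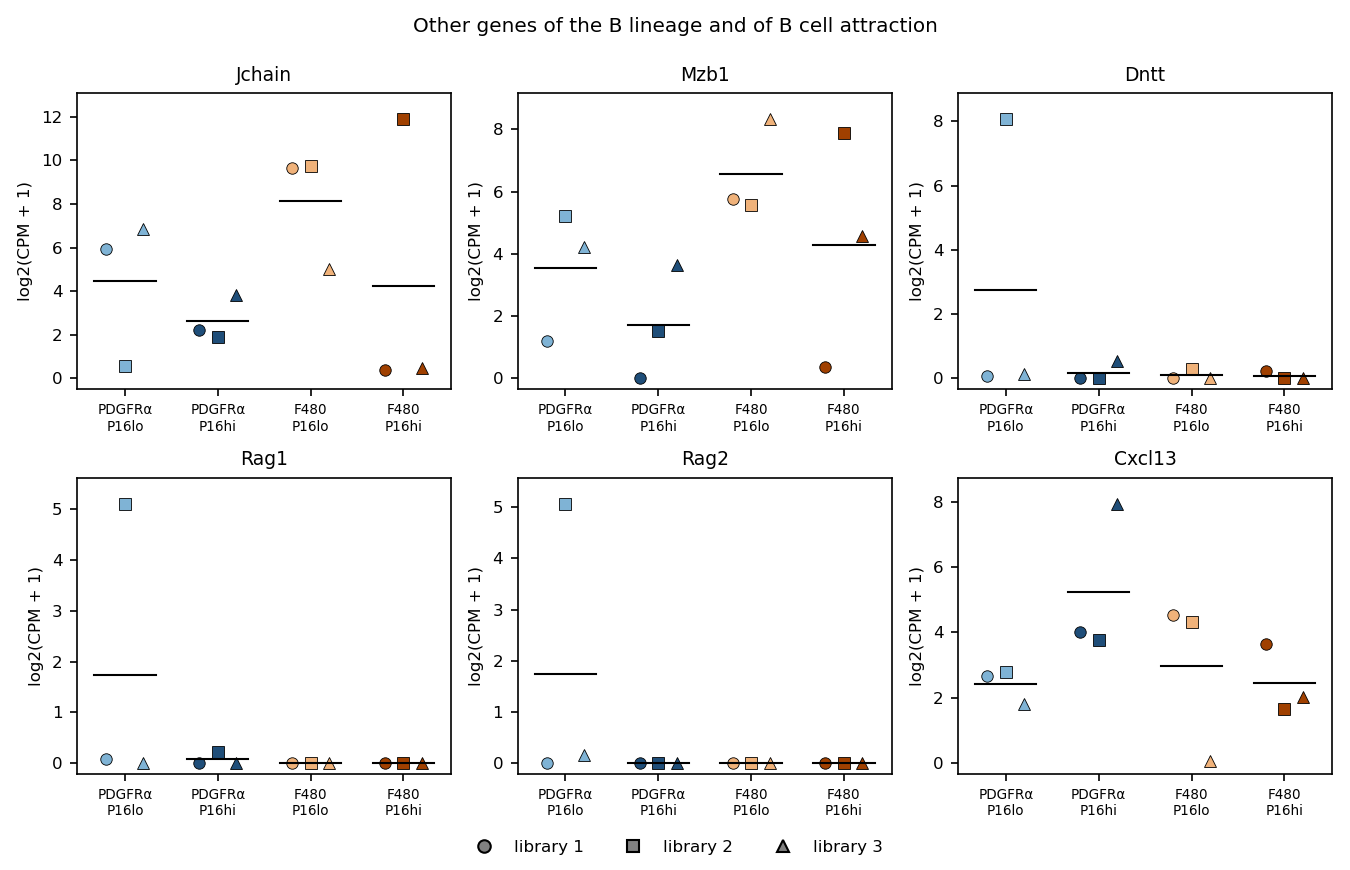
Levels of 2 plasma cell genes (Jchain, Mzb1), 3 recombination genes (Dntt, Rag1, Rag2) and of the chemokine Cxcl13 in each library, as log2(CPM + 1); lines are means of the 3 log values and CPM are scaled within each population. Jchain peaks in F480-high P16hi library 2 (3780 CPM) among F480-high libraries, and Dntt, Rag1 and Rag2 in P16lo library 2 (267, 33.3 and 32.5 CPM) among PDGFRα-high libraries.

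Of 12 genes that attract B cells or keep them alive, none was called between P16hi and P16lo in either population. Cxcl13, the chemokine that draws B cells through Cxcr5, measured 5.32, 5.88 and 2.52 CPM (P16lo) and 15.3, 12.5 and 243 CPM (P16hi) in PDGFRα-high cells. All 3 P16hi libraries lay above all 3 P16lo libraries, as for 7.92% of genes in the higher direction, and the difference was 4.30 (SE 1.25, adjusted p = 0.507, edgeR). It was 1.59 (SE 0.778) without P16hi library 3. In F480-high cells Cxcl13 measured 22.03, 19.03 and 0.0381 CPM among P16lo and 11.6, 2.14 and 3.11 CPM among P16hi libraries. The survival factor Tnfsf13b (BAFF) ran from 0.34 to 9.47 FPKM over the 12 libraries, with a P16hi against P16lo difference of -0.43 (SE 1.22) in PDGFRα-high cells, which was 1.80 without P16lo library 1, and of -1.18 (SE 0.952) in F480-high cells. Between the populations, 1 gene of the 12 was called higher in F480-high than in PDGFRα-high cells, against 2.64% of all genes tested. It was Cxcr4, the receptor for Cxcl12 on B cells and many other leukocytes, at 2.07 (SE 0.517, adjusted p = 0.0419, edgeR). Cxcr4 was called in 2 of the 12 fits that left out 1 library.

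Markers of other cells moved with the B cell genes in some libraries and not in others. F480-high P16lo library 3, the richest in B cell genes, had the lowest summed level of 12 macrophage markers of its population, 3439 CPM against 16190 to 57600 CPM, and the lowest of 12 fibroblast markers, 209.8 CPM against 306 to 1574 CPM. F480-high P16hi library 1, the poorest of its population in 8 of the 9 genes, had the most macrophage signal of that population, 57600 CPM. PDGFRα-high P16lo library 2, the richest of its population in 8 of the 9 genes, also had the highest sum of T and NK cell markers given above. It was highest of its population for monocyte markers too, at 5500 CPM against 426 to 1160 CPM, and for neutrophil markers, at 2073 CPM against 50.3 to 204 CPM. In F480-high cells P16hi library 2 had the highest monocyte sum, 6127 CPM against 303 to 2096 CPM. The high values were thus not confined to lymphocyte markers. By its counts, F480-high P16hi library 3 carried 10630 CPM of 10 endothelial markers against 41.4 to 151 CPM in the other 5. It also had the second highest Ebf1 of its population by counts. Its deposited TPM depart from its FPKM (see the last section), and by TPM its Ebf1 was 4.63, below the 4.84 of P16hi library 2. In PDGFRα-high cells the same endothelial sum ran from 575 to 1940 CPM in P16lo and from 5231 to 8861 CPM in P16hi. Although the sort was of other cells, 10 cardiomyocyte markers summed there to 270 to 334 CPM in P16lo and to 2512 to 9028 CPM in P16hi. For all 10, every P16hi lay above every P16lo library, as for 7.92% of genes tested. Siglech, a marker of plasmacytoid dendritic cells, which can also express Blk, Ly6d and Cd22, ran from 0.40 to 7.28 FPKM over the 12 libraries. The sum of a list of 10 genes of these cells went another way. It was 1779 to 2005 FPKM in PDGFRα-high P16hi libraries and 247 to 782 FPKM in all others. Siglech held 0.40, 0.69 and 5.99 FPKM in those P16hi libraries, so more abundant genes of the list set the sum. Of its 7 genes tested in PDGFRα-high cells, 4 lay below 0 in P16hi against P16lo. Their median was -0.26, against -0.17 over all genes. On log2 CPM scaled over all 12 libraries, Pearson's r of that sum was -0.54 with Cd79a and -0.48 with Cd22. The part of these cells in the B cell result was not tested.

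**Figure D5:**
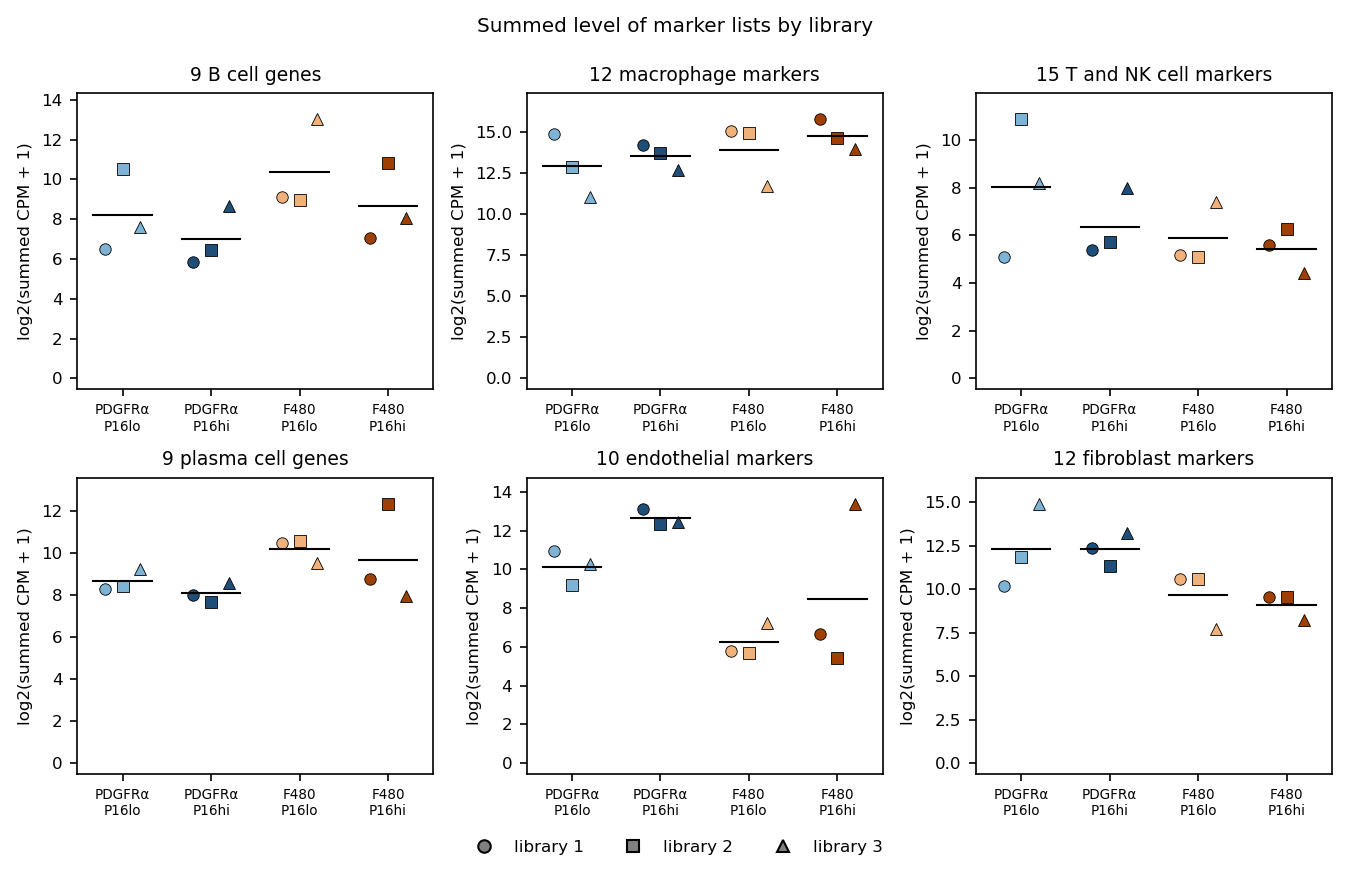
Summed level of 6 marker lists in each library, as log2(summed CPM + 1), by group; symbols mark library numbers, lines are means of the 3 log values and CPM are scaled within each population. The library with the most B cell signal, F480-high P16lo library 3 (8367 CPM), has the lowest macrophage sum of the F480-high libraries (3439 CPM).

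Outside the 9, the 10 genes most like their mean over the 12 libraries, among 8795 whose log2 CPM averaged 3 or more, included Spib (r = 0.987), Fcer2a (0.987), Fcrla (0.984), Siglecg (0.977), Sarnp (0.976), Cxcr5 (0.973), H2-DMb2 (0.965) and Ptprcap (0.963). Of these 8, Spib, Fcer2a, Fcrla, Siglecg and Cxcr5 stand on the B cell lists used here. Fcer2a, the low-affinity IgE receptor of mature follicular B cells, measured 365 FPKM in F480-high P16lo library 3, 28.6 FPKM in F480-high P16hi library 2 and 26.7 FPKM in PDGFRα-high P16lo library 2. Spib, an ETS factor of B cells and plasmacytoid dendritic cells, measured 184.5, 51.7 and 25.8 FPKM in the same libraries. These likenesses are descriptions over 12 libraries that share depth and sort.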

How the data were processed

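RNA from 12 sorted cell samples, 3 in each of 4 groups, was measured by RNA sequencing. The cDNA was tagged by a transposase, per the labels' protocols. The submitters' processing notes name HISAT with GRCm38 and mm10. Which tool counted reads, and whether by strand, is not given in the sources used here. The columns deposited for each gene and library are, per the file headers, an estimated count, an FPKM, a TPM and a normalised count. The last, a signal scaled by the authors, was left unused. Each table holds a pair of column blocks, matched here on the gene identifier. Where 1 block lacks a gene, its value was taken as 0 (13053 of 17398 PDGFRα genes and 15698 of 17071 F480 genes are in both).

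Estimated counts were rounded and fitted in R 4.3.3 with edgeR 4.0.16 (quasi-likelihood test, TMM scaling, filterByExpr with a minimum count of 10), with Benjamini-Hochberg adjustment over all genes and a threshold of 0.05. P16 contrasts used the 6 libraries of a population, the others all 12. All 9 genes passed the filter in all 4 comparisons. DESeq2 1.42.0, limma 3.58.1 on log2(TPM + 1) and on log2(FPKM + 1), other scalings and filters, and fits without each library were alternatives. The FPKM alternative was chosen after seeing the data. The fits were tested on simulated data whose spread between libraries was set beforehand and not taken from these libraries. That test therefore does not show what could be detected here. No 2 libraries of a group agreed within sampling noise. The deviations of same-numbered libraries gave a mixed result (r from -0.30 to 0.47), as did those of differently numbered ones (-0.52 to 0.52). Pairing is thus not excluded. The labels do not say that numbers mark pairs, so they were not treated as such. Named are all 9 genes, genes among the 3 with the smallest p of each other B cell list in a comparison, the 10 most alike, and Cxcl13 and Tnfsf13b, except that some genes under this rule are not reported here. Rag1, Rag2, Dntt, Igll1, Siglech, Cdkn2a and the sort markers were added after their values were seen. The 9 genes and all lists were chosen with earlier results of these data known.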

Additional observations from a re-analysis of the deposited data

How the results depend on the processing

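The 9 genes gave no call in the P16 contrasts or in their difference between populations under any setting tried that tested them. Pax5 failed the filter of the TPM, FPKM and 50-count settings in PDGFRα-high cells and of the FPKM setting in F480-high cells, which left 8. In the population comparison DESeq2 called 1 of the 9 (Cd22, 2.59) and edgeR between 0 and 1 when a library was left out. Without each library in turn, the median of the 9 moved between -3.41 and 0.86 (PDGFRα-high), between -4.75 and 0.58 (F480-high), between -2.70 and 2.26 for the difference of the contrasts, and between 1.076 and 3.77 between populations. In PDGFRα-high cells the ranges were -3.72 to 0.86 for Cd79a, -3.41 to 1.26 for Ms4a1, -9.31 to 1.03 for Pax5 (its lowest value is against libraries without a count, and is set by the prior count), -1.81 to 0.74 for Cd22, -3.02 to 1.25 for Fcmr, -4.77 to 0.96 for Ly6d and -0.76 to 0.64 for Ebf1, while Cd79b (-2.84 to -0.24) and Blk (-3.80 to -0.16) stayed below 0. In F480-high cells they were -5.20 to 0.047 for Cd79a, -3.91 to 0.53 for Cd79b, -4.92 to 0.76 for Ms4a1, -3.34 to 0.82 for Pax5, -1.76 to 0.90 for Cd22, -4.93 to 0.51 for Fcmr, -4.85 to 0.58 for Ly6d, -1.87 to 1.60 for Ebf1 and -4.75 to 0.31 for Blk. Between populations Ebf1 ran from -0.82 to 0.77. Other settings turned the sign of 3 PDGFRα-high differences: Ebf1 to 0.45 with library totals, Cd22 to 0.051, Fcmr to 0.38 and Ebf1 to 0.58 with log2(TPM + 1), and Fcmr to 0.077 and Ebf1 to 0.32 with log2(FPKM + 1). Between populations Ebf1 turned to -0.22 with TPM and -0.28 with FPKM. The median of all genes in PDGFRα-high cells was 0.24 with library totals, 0.51 with TPM and 0.25 with FPKM. The cause was not tested. With the replicate number as a block, the median over PDGFRα-high cells was -1.50, that over F480-high cells -3.67, and the others -2.08 for the difference of the contrasts and 2.39 between populations, with 0 of 9 called in each. That block turned Fcmr to 0.56 in PDGFRα-high cells and Ebf1 to -0.40 between populations. Over all genes, the population comparison called 372 higher and 520 lower with edgeR and 1242 higher and 1977 lower with DESeq2, but 0 without F480-high P16lo library 1 or without P16lo library 2, and 1316 higher and 1470 lower without P16hi library 3. In PDGFRα-high cells DESeq2 called 293 higher and 11 lower where edgeR called 0, and in F480-high cells 2 higher and 1 lower.

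The limits are the 3 libraries a group and their spread, the unexplained column blocks, and low counts: Pax5 and Blk had 0 to 21 counts in PDGFRα-high P16lo library 1 and P16hi libraries 1 and 2. In PDGFRα-high P16hi library 1, Ms4a1 had 1 count and Ly6d 2. Fcmr had 7 counts in PDGFRα-high P16lo library 1 and in F480-high P16hi library 1. Depth does not limit Cd79a, which had at least 38 counts everywhere.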

Other observations

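The deposited TPM of F480-high P16hi library 3 are not a fixed multiple of its FPKM. In the other 11 libraries the ratio of TPM to FPKM is constant over genes, while in this one the 5th to the 95th percentile span 0.315 to 2.76. For the 9 B cell genes the ratio there runs from 0.0531 for Blk to 1.19 for Cd22. The TPM column of that library enters the log2(TPM + 1) alternative alone, and counts and FPKM are used elsewhere. Which of its columns is right is not known here. Every value and fit that uses this library carries that limit. Its endothelial markers summed to 17820 FPKM but 4745 TPM, and its monocyte markers to 245 FPKM but 3369 TPM. The 9 genes summed to 256 FPKM but 135 TPM.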
